A study of Mus musculus with 24 samples.

Results

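The comparison described here is that of fasted mouse liver without Ppara against fasted mouse liver with it. It takes 12 of the 24 arrays of the series, chosen by their labels: the arrays titled PPARaLKO_Fasted (LKO) and PPARaLWT_Fasted (WT). They come from 6 LKO and 5 WT animals of the 22 animals in the series, because 1 fasted WT animal was hybridised on 2 arrays, which were averaged. All were male C57Bl/6J mice of 8 weeks, kept on chow in a light-dark cycle, fasted for 24 h and killed at ZT16, 16 h after lights on. Fed LKO (6 animals) and fed WT mice (5 animals) of that age, sex and killing time enter the same fit, so that they share in its estimate of the spread and in the filter on dim probes, and they show where the fasted comparison differs. The part of Ppara that was deleted, and the promoter that drives the recombinase, are not given in the sources used here. The samples are whole liver, so that fewer cells of a type and less RNA per cell cannot be told apart in any result below. The labels give each animal its own number, so replicates are animals, while the series text counts 24 mice; the animal numbers were followed.

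PPARα, the product of Ppara, is a nuclear receptor that is activated by fatty acids and binds DNA together with a retinoid X receptor. In the liver it is known for raising the transcription of genes for the uptake, activation, oxidation and ketone conversion of fatty acids during fasting. A fasted liver receives fatty acids from adipose tissue, burns part of them in mitochondria and peroxisomes, exports part as ketone bodies and stores part in lipid droplets. The comparison asks how the liver transcriptome of a fasted mouse differs when that receptor is lost.

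Levels below are log2 fluorescence signals relative to the 75th percentile of the same array, and a difference is LKO minus WT on that log2 scale. Levels of different probes are not compared with each other. A gene is called when its adjusted p (limma, Benjamini-Hochberg over 17215 genes) is below 0.05, and SE is the standard error of a difference. The 75th percentile was 499.8 to 563.4 intensity units on the LKO arrays and 487.1 to 614.2 on the WT arrays, and 54.08% to 58.83% and 53.43% to 57.81% of probes were well above background.

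Ppara itself was lower in the fasted LKO livers. At the probe on chromosome 15 at 85632110 to 85632169 (mm9), the WT animals read 5.97, 5.95, 5.95, 6.05 and 5.71, and the LKO animals lay between 4.86 and 5.17. The groups did not overlap, and the difference was -0.86 (SE 0.137, adjusted p = 5.23e-05, 1.81-fold). A second probe, at 85637193 to 85637252, gave -0.99 (SE 0.135, adjusted p = 7.98e-06). Signal therefore remained above background at both probes in 6 of 6 LKO animals. Whether these probes lie inside or outside the deleted part is not given in the sources used here, so they do not measure the completeness of the deletion. The receptor Pparg, which directs fat storage in adipocytes, was 0.74 higher (SE 0.13, adjusted p = 1.1e-04), with 1.97 to 2.31 in LKO against 1.23 to 1.53 in WT.

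Of the 17215 genes tested, 6543 (38.0%) were called. Of these, 3112 (18.1%) were higher and 3431 (19.9%) lower in LKO. Most differences were small: 406 genes (2.36%) were called and at least 2-fold higher, and 426 (2.47%) were called and at least 2-fold lower. These 2-fold counts depend on how dim signals are treated, with 199 higher and 249 lower under another background correction (normexp). The animals of the groups did not overlap in 4351 genes (25.3%). The first principal component of the 11 animals held 50.6% of the variance, and the genotype accounted for 99.4% of it, against 1.11% for the slide. The median difference over all genes was -0.01.

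**Figure D1:**
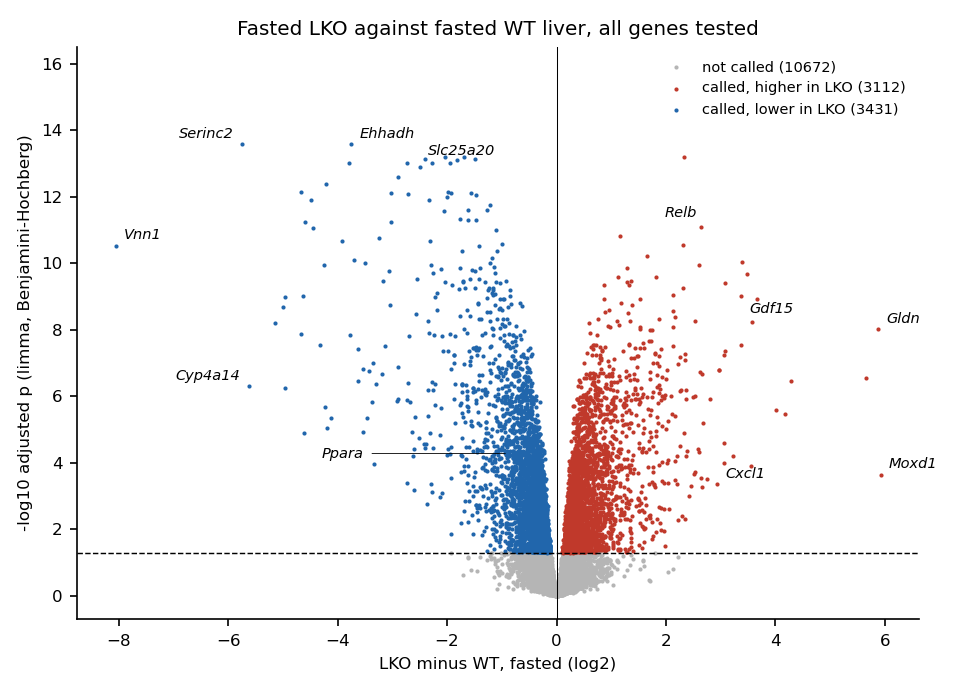
Each point is 1 of the 17215 genes, with the LKO minus WT difference in fasted liver (log2) on the x axis and -log10 of the adjusted p on the y axis; called genes are coloured by direction and some are named. Ehhadh and Serinc2 stand at the top on the lower side, Vnn1 farthest to the left, and Relb is the highest named gene on the higher side.

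Mitochondrial fatty acid oxidation was lower almost throughout. Of 24 genes of that pathway, 23 were called lower and 0 higher, against 19.9% lower over all genes, with a median of -1.11. The mean level of the list was 5.74 to 5.84 in the WT animals and 4.47 to 4.65 in the LKO animals, so the groups stood apart. Within the 3 slides, the median was -1.15, -1.19 and -1.04.

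Transport into the mitochondrion was lower at its later steps. Slc25a20, the carrier that brings acylcarnitines across the inner membrane, read 3.71, 3.69, 3.77, 3.62 and 3.74 in the WT animals and 0.91, 1.25 and 1.39 (lowest, median, highest) in the LKO animals. Every LKO animal lay below every WT animal, by -2.50 (SE 0.10, adjusted p = 1.3e-13, 5.66-fold). Cpt2, which turns the carried acylcarnitine back into acyl-CoA, was 6.59 to 6.82 in WT and 4.56 to 4.91 in LKO (-1.99, adjusted p = 1.1e-12). Cpt1a, which makes the acylcarnitine at the outer membrane, was the member not called: the WT animals read 7.12, 7.08, 6.90, 6.87 and 6.86, and the LKO animals 6.52, 6.66 and 6.99. These ranges overlap, and the difference was -0.25 (adjusted p = 0.0578). The adjusted p fell below 0.05 in 6 alternatives, among them without LKO animal 1 (0.0298) and without LKO animal 5 (0.0223), and within the 3 slides the difference of Cpt1a was -0.49, 0.01 and -0.33. Inside the mitochondrion, Acadm, the medium-chain acyl-CoA dehydrogenase, was 7.19 to 7.39 in WT and 6.09 to 6.37 in LKO (-1.03, 2.05-fold, adjusted p = 1.7e-08). Etfdh, which passes the electrons of that step to ubiquinone, was 5.95 to 6.18 in WT and 3.61 to 3.80 in LKO (-2.41, 5.32-fold, adjusted p = 7.3e-14). Both genes were without overlap.

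Peroxisomes shorten very long chain fatty acids. Of 33 genes of peroxisomal oxidation and biogenesis, 27 were called lower and 0 higher, with a median of -0.97. Ehhadh, the bifunctional enzyme of the peroxisomal cycle, read 6.92, 7.11, 7.24, 6.90 and 7.11 in WT and 3.01, 3.31 and 3.50 in LKO. The gap between the groups was wider than either group's range, with a difference of -3.76 (SE 0.12, adjusted p = 2.7e-14, 13.5-fold). Acaa1b, a thiolase of that cycle, was 7.41 to 7.81 in WT and 4.53 to 5.21 in LKO (-2.58, adjusted p = 3.3e-09). Abcd2, a peroxisomal importer of very long chain acyl-CoA, was above background in 5 of 5 WT and 0 of 6 LKO animals. It was at least 5.35-fold lower in LKO, a bound taken against the lowest signal that counted as above background on each array.

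Microsomal cytochromes P450 carry out omega-oxidation. Of 15 of their genes, 8 were called lower and 1 higher, with a median of -0.48. Cyp4a10, a fatty acid omega-hydroxylase, read 8.37, 8.29, 8.27, 8.30 and 8.24 in the WT animals but spread from 1.95 over 3.55 to 4.87 in the LKO animals. The WT animals were nearly equal, while the LKO animals differed among themselves by more than 2 log2 units and stayed below WT (-4.96, SE 0.55, adjusted p = 5.7e-07, 31.1-fold). Cyp4a14, of that subfamily, read 2.91, 3.13, 2.82, 2.85 and 2.54 in WT and -4.29, -2.81 and -1.11 in LKO (-5.62, SE 0.61, adjusted p = 5.0e-07, 49.3-fold). Cyp4a31 fell by 4.12 (adjusted p = 4.6e-06). These 3 genes are close copies of each other, and a probe may read more than its own transcript. Cyp4f14, a leukotriene and fatty acid hydroxylase, was the member called higher, at 5.13 to 5.65 in LKO against 4.43 to 4.83 in WT.

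Enzymes that split acyl-CoA or its breakdown products included the largest fall among all genes called. Of 24 genes for thioesterases and CoA turnover, 16 were called lower and 3 higher, with a median of -0.41. Vnn1, a pantetheinase that recycles the vitamin part of coenzyme A, read 3.90, 3.71, 4.07, 3.74 and 3.99 in WT and -5.59, -4.23 and -3.07 in LKO. The LKO signals lay near background, with 5 of 6 animals above it, and the difference was -8.06 (SE 0.45, adjusted p = 3.0e-11, 266-fold). The thioesterases Acot2 (-2.33, adjusted p = 1.3e-08), Acot3 (-3.53, adjusted p = 1.2e-05) and Acot5 (-2.34, adjusted p = 6.6e-07) fell without overlap. They are neighbouring, similar genes, and averaging the probes of Acot5 gave -1.49.

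**Figure D2:**
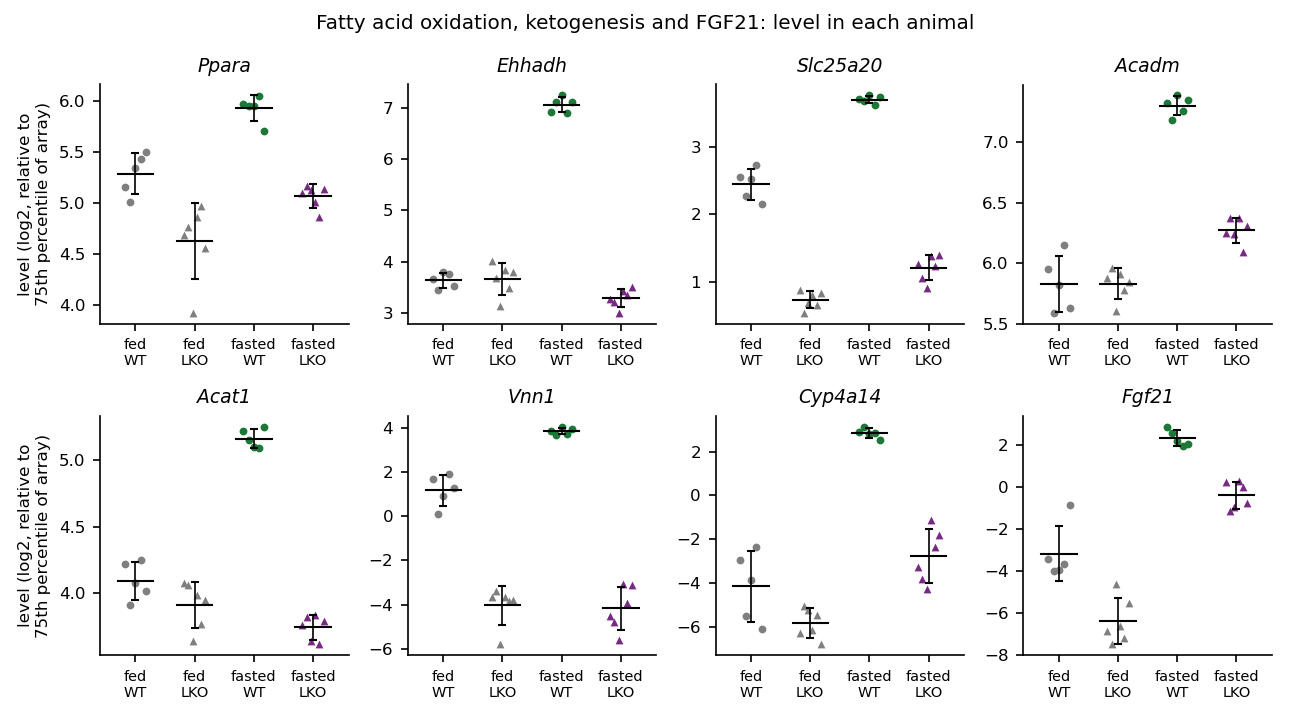
Log2 level relative to the array's 75th percentile (y axis) in each animal of the 4 groups (x axis) for Ppara and 7 genes of fatty acid oxidation, ketone synthesis and fasting; points are animals and bars are mean ± SD. In the fasted groups the LKO points lie below the WT points in each panel, while in the fed groups Ehhadh, Acadm, Acat1 and Cyp4a14 overlap.

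Ketone bodies are the exported product of hepatic fatty acid oxidation. Of 10 genes of ketone synthesis and use, 6 were called lower and 2 higher, with a median of -0.55. Acat1, which supplies acetoacetyl-CoA, read 5.22, 5.15, 5.10, 5.09 and 5.25 in WT and 3.62, 3.77 and 3.84 in LKO. Both groups were tightly spread, and they differed by -1.42 (SE 0.079, adjusted p = 3.1e-11, 2.67-fold). Slc16a6, a ketone body exporter, was one of the pair called higher (1.01, adjusted p = 8.4e-05), at 0.64 to 1.56 in LKO against -0.08 to 0.53 in WT.

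Among 27 secreted factors of fasting and stress, 6 were called higher and 6 lower. Fgf21, a fasting hormone of the liver, read 2.87, 2.57, 2.21, 1.97 and 2.07 in WT and -1.15, -0.39 and 0.28 in LKO. All LKO animals were lower, with a difference of -2.73 (SE 0.53, adjusted p = 4.0e-04, 6.65-fold). Angptl4, an inhibitor of lipoprotein lipase, was 7.53 to 7.68 in WT and 6.88 to 7.19 in LKO (-0.63, adjusted p = 0.016). Creb3l3, a transcription factor of the fasted liver, was 0.51 lower in LKO without overlap. Igfbp1, a binding protein for insulin-like growth factors, was 8.43 to 8.94 in LKO and 7.54 to 8.13 in WT. Its ranges did not overlap, yet the difference of 0.97 had an adjusted p of 0.086 because the spread is shared with the fed animals; a fit of the 11 fasted animals alone gave 1.7e-04.

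Uptake and activation of fatty acids followed the direction of oxidation. Of 28 genes, 16 were called lower and 1 higher, with a median of -0.66. Mfsd2a, a carrier of lysophospholipids that hold long-chain fatty acids, read 6.15, 5.83, 6.21, 6.05 and 5.87 in WT and -0.06, 0.94 and 1.77 in LKO (-5.14, SE 0.41, adjusted p = 6.1e-09, 35.2-fold). The lowest WT animal stood about 4 log2 units above the highest LKO animal. Cd36, a fatty acid translocase, was 0.86 to 1.73 in WT and -1.37 to -0.38 in LKO (-2.24, adjusted p = 1.5e-08). Acsl1, which activates long-chain fatty acids, fell by 1.52 (adjusted p = 7.4e-07). Fabp1, the abundant cytosolic fatty acid binding protein of hepatocytes, read 9.70, 9.62, 9.80, 9.70 and 9.77 in WT and 7.91, 8.53 and 8.94 in LKO (-1.22, SE 0.13, adjusted p = 3.7e-07).

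PPARα and its partner bind pairs of hexamers in direct repeat with 1 base between them. Promoter windows (250 bases before to 50 after the start, RefSeq, GRCm38.p6) matched 12752 of the tested genes, and AGGNCA followed, after any 1 base, by AGGTCA was searched on both strands. This pair was in 19 of 12752 genes (0.149%), in 1 of 318 genes called at least 2-fold lower and in 1 of 303 called at least 2-fold higher. Of the 21 mitochondrial, 25 peroxisomal and 9 omega-oxidation genes with a window, 0 held it, which says only that these letters are not in these windows. The gene among the lower ones was Fabp1. The part of its window around the match, chr6:71199767-71199869 on the + strand, is shown because it is the match among the fatty acid genes, with the match in capitals; it reads on the strand opposite to the gene, from 67 to 55 bases before the start.
Fabp1: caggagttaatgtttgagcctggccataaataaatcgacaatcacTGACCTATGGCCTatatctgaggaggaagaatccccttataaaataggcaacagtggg

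Lipid droplet genes and triglyceride synthesis were lower as well. Of 23 genes of droplets and intracellular lipases, 13 were called lower and 2 higher (median -0.59). Of 14 genes of triglyceride synthesis, 10 were lower and 1 higher (median -0.44). G0s2, an inhibitor of the lipase that opens the droplet, read 6.06, 5.91, 5.36, 4.89 and 4.83 in WT and 2.21, 2.83 and 3.26 in LKO (-2.65, SE 0.37, adjusted p = 1.2e-05). Its WT animals were widely spread and still all above LKO. Fitm1, which helps droplets form, fell by 3.42 (10.7-fold, adjusted p = 1.8e-07), and Plin5, a droplet coat protein that contacts mitochondria, fell by 2.28 (adjusted p = 3.6e-07). Plin2 (-0.59) and Cidec (-1.74), coat and fusion proteins of droplets, were called lower too. In synthesis, Agpat9, a glycerol-phosphate acyltransferase, was 2.77 to 3.01 in WT and -1.36 to 0.04 in LKO (-3.36, adjusted p = 1.0e-07). Mogat1, a monoacylglycerol acyltransferase, fell by 2.10, and Gpd1, which makes glycerol phosphate, fell by 1.63 (adjusted p = 2.5e-09).

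**Figure D3:**
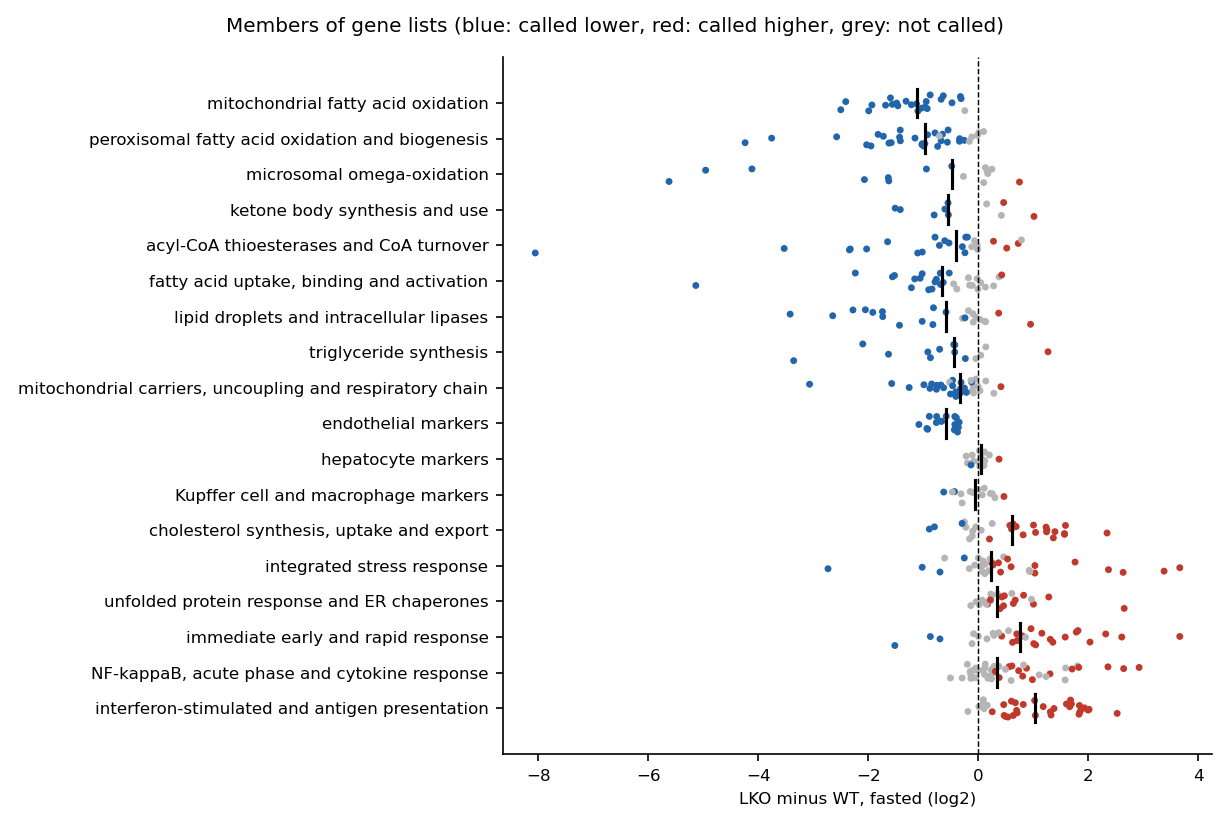
LKO minus WT difference in fasted liver (x axis, log2) of each tested member of 18 gene lists (rows); ticks mark list medians and the dashed line the median of all genes, -0.01. Oxidation lists lie on the lower side, and the interferon, immediate early and cholesterol lists on the higher side.

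Fatty acid synthesis did not move as a whole: of 29 genes, 7 were called higher and 9 lower, with a median of -0.11. Fasn, fatty acid synthase, was 4.79 to 5.27 in LKO and 4.79 to 5.21 in WT, with a difference of 0.03 (adjusted p = 0.94). Scd1, a desaturase, was 5.45 to 6.76 in LKO and 3.77 to 5.23 in WT (1.35, adjusted p = 0.0052). Srebf1, a transcription factor of lipogenesis, was 0.78 lower (adjusted p = 5.2e-05).

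Cholesterol genes moved in the opposite direction to oxidation. Of 28 genes of cholesterol synthesis, uptake and export, 17 were called higher and 3 lower, with a median of 0.62. Cyp51, which removes a methyl group from lanosterol, read 2.44, 2.03, 2.80, 2.65 and 2.78 in WT and 3.48, 4.16 and 4.46 in LKO (1.59, SE 0.18, adjusted p = 8.6e-07). Every LKO animal was above every WT animal. Fdps, which makes farnesyl diphosphate, was 4.72 to 6.10 against 3.49 to 4.58 (1.57, adjusted p = 4.4e-05). The transporters Abcg5 and Abcg8, which move sterols into bile, fell by 0.80 and 0.89. The size of the list's shift varied by slide, with medians of 0.62, 0.34 and 0.92. Its mean level in LKO animal 5 was 3.22, the lowest of the LKO animals (the others 3.63 to 3.84) and above the WT range of 2.75 to 3.18. In the fed animals the mean level was 3.52 to 3.95 in WT and 3.64 to 4.06 in LKO, so fasted LKO lay within or below the fed ranges.

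Bile acid genes split, with 5 of 24 called higher and 9 lower (median 0.04). Cyp7a1, which catalyses the first and limiting step from cholesterol to bile acids, read 3.39, 2.02, 1.97, 0.96 and 3.76 in WT and -1.45, -0.04 and 0.55 in LKO. The WT animals spread widely and none reached the LKO range, with a difference of -2.62 (SE 0.42, adjusted p = 6.1e-05). Cyp8b1, which sets the share of cholic acid, was 1.07 lower, and Slc10a2, a bile acid importer, was 1.83 higher.

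Of 37 genes of gluconeogenesis, glycolysis and glycogen, 7 were called higher and 12 lower (median -0.12). Pck1, a gluconeogenic enzyme, was 8.48 to 8.68 in LKO and 8.62 to 8.76 in WT (-0.13, adjusted p = 0.38). Pfkfb1, which sets the signal between glycolysis and gluconeogenesis, read 4.64, 4.90, 4.71, 4.57 and 4.71 in WT and 3.19, 3.57 and 3.89 in LKO, a difference of -1.13 without overlap (SE 0.14, adjusted p = 1.9e-06). Pdk4, a kinase that inhibits the pyruvate dehydrogenase complex, was 1.28 to 1.85 in LKO and 1.75 to 3.17 in WT. These ranges overlap, and the difference was -1.03 (SE 0.29, adjusted p = 0.0077).

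Genes of cell stress were higher. Of 32 genes of the integrated stress response, 13 were called higher and 4 lower (median 0.23), and of 25 genes of the unfolded protein response, 12 were higher and 0 lower (median 0.35). Gdf15, a stress hormone that limits food intake, read 2.08, 2.51, 2.01, 1.00 and 1.90 in WT and 4.82, 5.30 and 5.60 in LKO (3.38, SE 0.24, adjusted p = 9.7e-10, 10.4-fold). Atf3, a transcription factor of many stresses, read -2.16, -2.10, -1.91, -3.25 and -1.70 in WT and 0.99, 1.53 and 1.91 in LKO (3.66, SE 0.26, adjusted p = 1.2e-09, 12.7-fold). In both genes the groups stood more than 2 log2 units apart. Trib3, a target of that response, rose by 1.03, Ddit3 by 1.76 and Nupr1 by 2.63, or by 1.34 with the probes of Nupr1 averaged. Mthfd2, an enzyme of mitochondrial folate metabolism, rose by 2.37, though only 3 of 5 WT animals were above background. Hyou1, a chaperone of the endoplasmic reticulum, was 1.00 higher, at -2.17 to -1.01 in fasted LKO against -2.84 to -2.22 in fasted WT. In fed WT it was -1.39 to -1.03. Over the unfolded protein response list, the mean level was 3.35 to 4.19 in fasted LKO and 2.99 to 3.29 in fasted WT. It was 3.93 to 4.21 in fed WT and 3.785 to 4.595 in fed LKO, so fasted LKO lay within or below the fed ranges. Fgf21, which the integrated stress response list also holds, went the opposite way, as given above.

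Immediate early genes, which are transcribed within minutes of a stimulus, were higher too: 18 of 30 were called higher and 3 lower, with a median of 0.76. The mean level of the list was 1.16 to 1.49 in LKO and 0.31 to 0.63 in WT. Nr4a1, an orphan nuclear receptor of this class, read -0.59, -0.16, -0.36, -0.56 and -0.62 in WT and 1.59, 2.26 and 2.50 in LKO (2.61, SE 0.16, adjusted p = 1.1e-10, 6.10-fold). Klf6 rose by 2.32 and Fos by 1.81. Gadd45g, a growth arrest gene, was among the 3 called lower, at 4.14 to 4.74 in LKO and 5.59 to 6.19 in WT.

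Of 44 genes of NF-kappaB, the acute phase and cytokines, 14 were called higher and 0 lower (median 0.34), a share above the 18.1% called higher over all genes. Relb, a subunit of NF-kappaB, read -2.05, -2.04, -1.92, -1.95 and -1.89 in WT and 0.42, 0.71 and 0.96 in LKO (2.64, SE 0.14, adjusted p = 8.3e-12, 6.25-fold). Tnfaip3, which ends NF-kappaB signalling, was 0.49 to 1.40 in LKO and -1.59 to -1.24 in WT (2.36, adjusted p = 1.2e-06). Cxcl1, a chemokine for neutrophils, read 0.03, -0.29, -0.70, -0.64 and 0.24 in WT and 1.86, 2.76 and 3.33 in LKO (2.92, SE 0.58, adjusted p = 4.4e-04). These 3 genes were without overlap. The count rests in part on the spread of the fed animals: fed LKO animal 3 had a list mean of 4.98 against 3.20 to 3.74 in the other fed animals. Without it 23 of the 44 genes were called higher, and a fit of the 11 fasted animals alone called 25.

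Interferon-stimulated and antigen presentation genes were higher for the most part: 29 of 35 were called higher and 0 lower, with a median of 1.02. The mean level of the list was 1.09, 0.90, 1.09, 1.04 and 1.09 in the WT animals and 1.81 to 2.51 in the LKO animals. Cxcl10, a chemokine that interferon induces, read -1.33, -1.18, -0.98, -1.13 and -1.58 in WT and 0.86, 1.11 and 2.03 in LKO (2.52, SE 0.20, adjusted p = 5.4e-09, 5.76-fold). Ifit1, an antiviral sensor of RNA, read -1.22, -1.58, -1.32, -1.40 and -1.22 in WT and 0.11, 0.54 and 1.58 in LKO (2.01, SE 0.20, adjusted p = 1.6e-07). LKO animal 6 had the highest list mean, and the other LKO animals, at 1.81 to 2.21, also lay above WT. Mx1, an antiviral GTPase, rose by 2.00 (1.20 under normexp), and Irf7, a transcription factor of the interferon system, rose by 1.66. The list median was 1.06, 0.91 and 0.96 within the 3 slides.

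Stretches of promoters are shown for genes of these immune lists because their members named above rose and their windows hold a matching element. The core of interferon-stimulated response elements, GAAA followed after any 2 bases by GAAA, was searched on both strands and was in 490 of 12752 genes with a window (3.84%). It was in 12 of 27 interferon genes with a window (44.4%), of which 11 were called higher, in 31 of 303 genes called at least 2-fold higher (10.2%) and in 11 of 318 called at least 2-fold lower (3.46%). A core of NF-kappaB sites, GGG followed after any 2 bases by TTTCC, was searched likewise and was in 244 of 12752 (1.91%) and in 7 of 36 genes of the NF-kappaB list (19.4%), of which 4 were called higher and 3 were not called. These matches are descriptions of letters, not of binding, and members were put on these lists as known targets. In the stretches below, 5′ to 3′ on the strand of the gene, capitals mark matches on either strand: the first pair to the interferon element at chr5:92349048-92349139 (Cxcl10, - strand) and chr19:34640740-34640839 (Ifit1, + strand), the second pair to the NF-kappaB core at chr5:90891111-90891210 (Cxcl1, + strand) and chr10:19015411-19015467 (Tnfaip3, - strand).
Cxcl10: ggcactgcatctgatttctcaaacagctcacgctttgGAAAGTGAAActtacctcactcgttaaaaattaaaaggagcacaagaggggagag
Ifit1: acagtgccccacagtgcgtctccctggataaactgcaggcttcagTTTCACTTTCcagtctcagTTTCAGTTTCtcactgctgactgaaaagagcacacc
Cxcl1: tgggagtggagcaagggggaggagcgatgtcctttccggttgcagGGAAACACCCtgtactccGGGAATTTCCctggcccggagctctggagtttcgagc
Tnfaip3: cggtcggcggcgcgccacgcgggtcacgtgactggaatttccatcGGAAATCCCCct

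**Figure D4:**
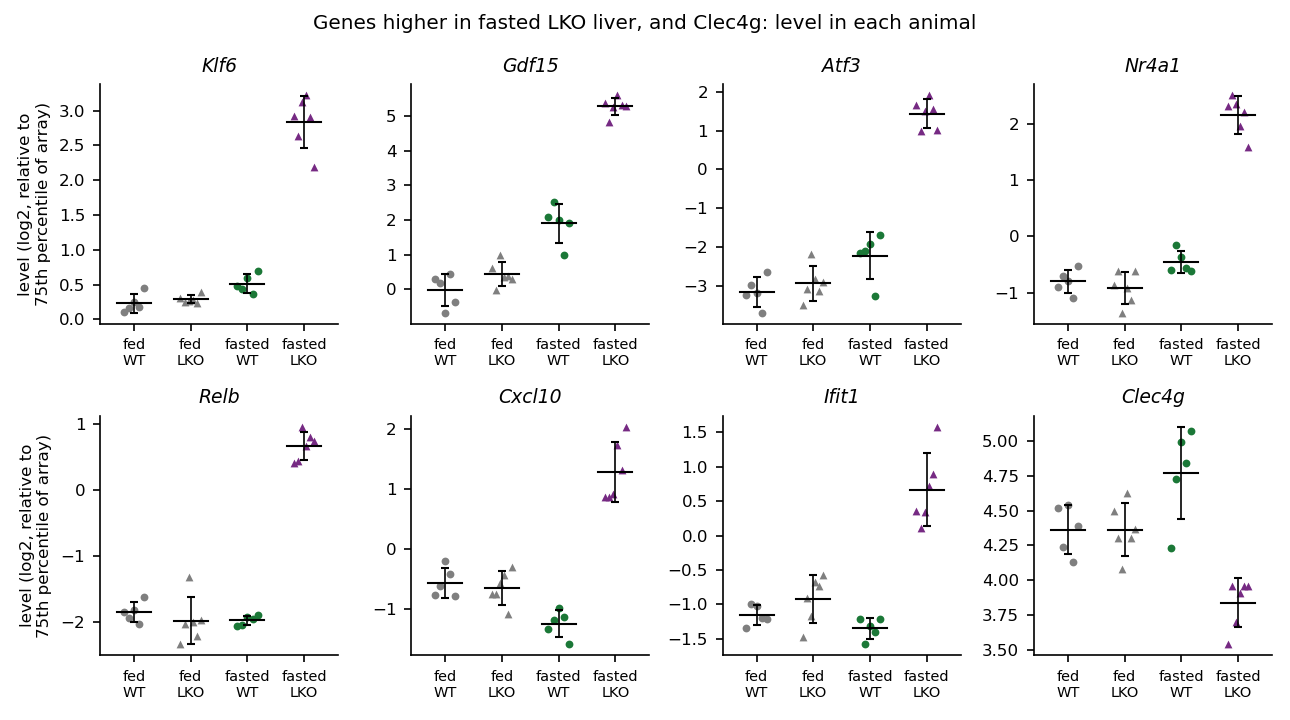
Log2 level relative to the array's 75th percentile (y axis) in each animal of the 4 groups (x axis) for 8 genes of stress, rapid response, immune response and endothelium; points are animals and bars are mean ± SD. Fasted LKO animals lie above fasted WT animals in 7 panels and below them for Clec4g.

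Markers of other liver cells give what moved beside these lists. Of 17 endothelial markers, 17 were called lower and 0 higher, with a median of -0.58. Clec4g, a lectin of sinusoidal endothelium, read 4.23, 4.73, 4.99, 4.84 and 5.07 in WT and 3.54, 3.94 and 3.96 in LKO (-0.94, SE 0.13, adjusted p = 1.2e-05). Tek, an angiopoietin receptor, fell by 1.08, and Fcgr2b, an antibody receptor of sinusoidal endothelium, fell by 0.92. Over the list, the mean level was 0.68 to 0.99 in fasted LKO and 1.21 to 1.60 in fasted WT, against 0.84 to 1.21 in fed WT and 0.78 to 1.29 in fed LKO. Of the fasted WT animals, 4 of 5 stood above both fed ranges and animal 1, at 1.21, did not, and fasted LKO lay within or just below the fed ranges. The list median was -0.53, -0.56 and -0.55 within the 3 slides.

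Of 14 Kupffer cell and macrophage markers, 1 was called higher and 2 lower, with mean levels of 1.81 to 2.33 in LKO and 1.57 to 2.29 in WT. WT animal 1 held the lowest of these levels, and the others of its group were at 2.17 to 2.29. Without WT animal 1, and likewise without LKO animal 6, 5 of the 14 markers were called lower, and without other single animals 1 or 2 were. Of 9 neutrophil and monocyte markers 1 was higher (Ly6c2, 0.71), and of 10 lymphocyte markers 1 was higher (Cd3g, 0.58), with 0 lower in either list. The neutrophil list had mean levels of -1.26 to -0.89 in LKO and -1.45 to -0.99 in WT, and the lymphocyte list -1.67 to -1.46 and -2.08 to -1.49. The B cell marker Ms4a1 was above background in 0 of 5 WT and 3 of 6 LKO animals. What part these cells have in the interferon and NF-kappaB lists was not tested. Of 17 hepatocyte markers 1 was higher and 1 lower, and their mean level was 7.94 to 8.04 in LKO and 7.91 to 8.01 in WT. Of 16 stellate cell markers 1 was higher and 0 lower, and of 9 cholangiocyte markers 3 were higher and 0 lower, with Tff3, a mucosal peptide, at 1.91.

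Other groups are given beside the 18.1% higher and 19.9% lower over all genes. Of 34 mitochondrial carriers and respiratory chain genes, 21 were called lower and 1 higher (median -0.33). Slc25a34, a mitochondrial carrier, fell by 3.07 (1.82 with its probes averaged), and Slc25a42, a coenzyme A carrier, fell by 1.26. Of 46 genes for the breakdown of amino acids and for urea formation, 13 were lower and 4 higher. Of 32 xenobiotic cytochromes P450, 11 were higher and 3 lower, with Cyp1a2 at 1.35, and of 34 genes of conjugation and glutathione, 14 were higher and 6 lower, with Hmox1, heme oxygenase, at 1.72. Of 30 genes of the growth hormone axis, 9 were higher and 3 lower, and Hsd3b5, a male-biased steroid enzyme, was 1.88 to 3.14 in LKO against -0.23 to 0.49 in WT (2.50, adjusted p = 1.1e-06). Of 18 clock genes, 5 were higher and 3 lower, with Nr1d1, a repressor of the clock, 1.74 lower.

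Many of the largest differences lay outside the lists of lipid metabolism. Serinc2, a serine incorporator, was 2.33 to 2.78 in WT and -3.72 to -2.80 in LKO (-5.75, adjusted p = 2.6e-14, 53.7-fold). Caln1, a calcium-binding protein of neurons, was 0.53 to 0.91 in WT and -4.46 to -3.16 in LKO (-4.66, adjusted p = 7.2e-13). Krt23, a keratin, was 2.05 to 3.26 in WT and -2.70 to -1.75 in LKO (-4.60, adjusted p = 5.6e-12). Mtnr1a, a melatonin receptor, fell by 4.66 with 5 of 6 LKO animals above background. Cfd, the complement factor adipsin that adipocytes secrete, fell by 4.22 with 3 of 6 above background; of the 6 adipocyte markers, 1 was called higher and 1 lower. For genes above background in 0 of 6 LKO animals the fold is a bound: Esrrg, an orphan nuclear receptor, was at least 11.4-fold lower, and Unc79, a subunit of a sodium leak channel, at least 6.44-fold lower.

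On the higher side, Blnk, a B cell adaptor protein, read -0.48, -0.31, -0.86, -0.44 and -0.60 in WT and 1.76, 3.04 and 3.27 in LKO (3.39, SE 0.20, adjusted p = 9.0e-11). Moxd1, a monooxygenase-like protein, was -5.36 to 0.11 in WT with 3 of 5 animals above background and 1.48 to 3.88 in LKO (5.92, SE 1.09, adjusted p = 2.3e-04). Gldn, a protein of nodes of Ranvier, was 5.87 higher with 2 of 5 WT animals above background. Hcar2, a receptor for the ketone body beta-hydroxybutyrate, was above background in 0 of 5 WT animals and at least 7.25-fold higher in LKO. Tmeff2, a transmembrane protein, and Wif1, a Wnt inhibitor, were likewise dim in WT and at least 5.77-fold and 3.76-fold higher. Fitted differences of such dim genes depend on the background correction: normexp gave 3.09 for Gldn, 1.35 for Hcar2, 1.39 for Tmeff2, 1.07 for Wif1, 1.20 for Mthfd2, -1.12 for Abcd2, -1.26 for Unc79, -2.08 for Cfd, -2.75 for Mtnr1a and -1.94 for Esrrg, each still called. For Esrrg, Unc79, Abcd2, Hcar2, Tmeff2 and Wif1 these values are smaller than the bounds above, which therefore hold for the processed signals and not for every background correction.

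The fed livers show how far these differences are those of the fasted state. When fed, 684 genes (3.97%) were called, 342 higher (1.99%) and 342 lower (1.99%), and with array weights 1071 were called when fed and 7562 when fasted. Of the 6543 genes called when fasted 7.83% were also called when fed, and of the 684 called when fed 74.9% were also called when fasted. Of the 512 genes called in both states, 480 had the same direction. The difference between the states was itself called in 3147 genes (18.3%), 1327 (7.71%) above 0 and 1820 (10.6%) below 0. It was called in 2910 of the 6543 genes called when fasted and in 269 of the 684 called when fed; each set was chosen on one of the differences compared, so that neither count tests which state has the larger effect.

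Named genes fell on both sides of that test. Ehhadh lay at 3.45 to 3.80 in fed WT and 3.14 to 4.02 in fed LKO, and its state difference, the fasted minus the fed genotype difference, was -3.78 (SE 0.18, adjusted p = 4.1e-11). In fasted LKO it lay at 3.01 to 3.50, within or below the fed ranges. Below 0 in the same way were Acot3 (-4.23), Cd36 (-2.84), Acot2 (-2.90), Acadm (-1.03) and Krt23 (-3.66). G0s2 and Pdk4 turned direction: in fed LKO they were 1.87 and 2.81 higher than in fed WT, with state differences of -4.52 and -3.85. Above 0 were Atf3 (3.45), Gdf15 (2.92), Relb (2.76), Nr4a1 (2.73) and Cxcl10 (2.61). For the lists, it was below 0 in 22 of 24 mitochondrial oxidation genes, 26 of 33 peroxisomal genes and 12 of 17 endothelial markers, and above 0 in 23 of 35 interferon genes and 15 of 30 immediate early genes. Of the interferon genes 0 were called when fed, and their fed median was 0.08.

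Other genes differed in the same direction in both states, some with and some without a called state difference. Fgf21 was lower in fed LKO, at -7.50 to -4.64 against -4.01 to -0.88 in fed WT, with 1 of 6 fed LKO animals above background, so that its fitted state difference (0.48, adjusted p = 0.73) rests on signals near background. Cyp4a10 was 3.53 lower when fed (state difference -1.43, adjusted p = 0.22). Slc25a20 and Vnn1 were lower in both states, by 1.72 and 5.22 when fed, with called state differences of -0.78 and -2.84. A state difference that misses the threshold does not show that the effects are equal.

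**Figure D5:**
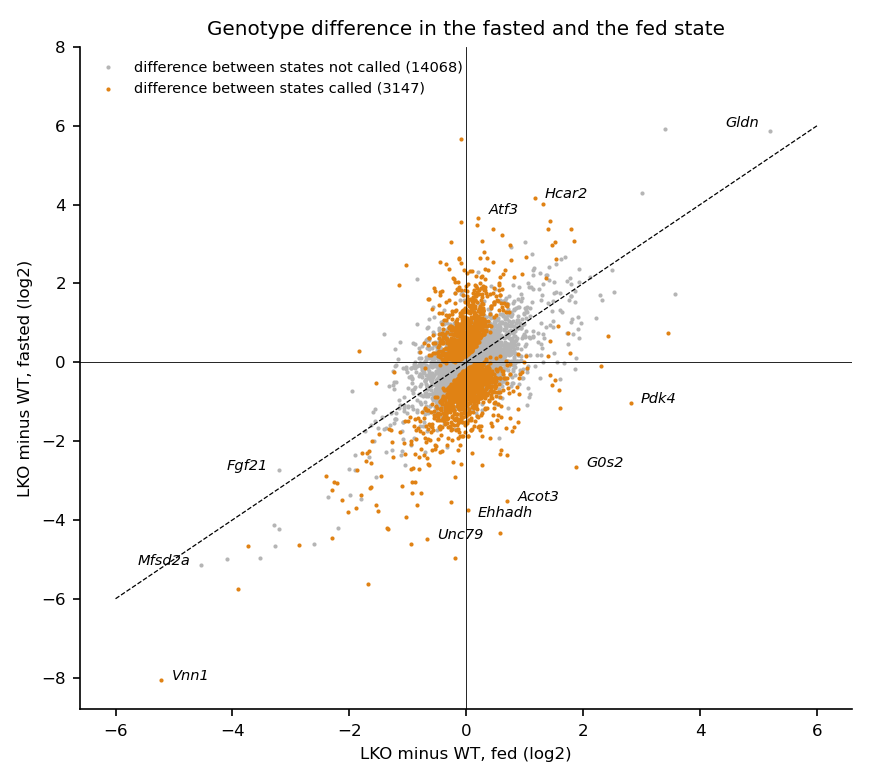
LKO minus WT difference (log2) in fed liver (x axis) and fasted liver (y axis) for each gene; colours mark genes whose difference between the states was called, and the dashed line marks equal differences. Ehhadh lies far below the line near 0 on the fed axis, Atf3 far above it, and Fgf21 close to it.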

How the data were processed

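Liver RNA was labelled with Cy3 and hybridised to 1-colour Agilent arrays on 3 slides. Per the file headers, the deposited scanner files hold intensity values from Agilent Feature Extraction 10.10.1.1, corrected for background and spatial trend and not normalized between arrays; probe positions are in mm9. A further deposited table of the authors holds log2 values, made with limma per the submitters' processing notes; it served as an alternative.

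Flagged and control spots were left out, spots of a probe averaged, and log2 processed signals set relative to each array's 75th percentile. Probes well above background in at least 5 of 22 animals were kept (28138 of 56605), and each of 17215 genes was represented by its brightest probe. A fit of the 4 groups over 22 animals (R 4.3.3, limma 3.58.1), tested on simulated data, gave the contrasts, with Benjamini-Hochberg adjustment. The number of animals limits the precision.

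The 2 arrays of the animal hybridised again correlated at 0.9934, against 0.9908 to 0.9934 between fasted WT animals. Alternatives covered normalization, background, filters, probes, blocks and left-out animals.

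The members and gene lists (29 pathway and 12 cell type lists) were chosen with earlier results of these data known. Named were a panel of 30 genes, the 15 largest called differences in each direction, the 3 largest of each list and the 8 largest state differences in each direction; a few that this rule names are left out. Cyp4f14, Ddit3, Nupr1, Mthfd2, Fos, Gadd45g, Irf7, Abcg5, Abcg8 and Ms4a1, outside that rule, were named after their values were seen. For a bound, the bright group's mean was set against a floor for each array of the dim group, which is the lowest signal well above background or the dim probe's own signal if that is higher.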

Additional observations from a re-analysis of the deposited data

Results flagged for a closer look

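In 10 of the 184 groups of animals examined, over 89 genes and the mean levels of some lists, 1 animal stood apart from the others of its group, by a gap that chance gives in about 5% of groups. LKO animal 5 was the lowest for Fdps (4.72), and LKO animal 6 was the highest for Angptl4 (7.19) and the lowest for Blnk (1.76). LKO animal 4 was the highest for Etfdh (3.80). WT animal 1, the animal measured on 2 arrays, was the lowest for Tek (-1.74) and for the mean levels of the endothelial (1.21) and Kupffer cell (1.57) markers. WT animal 2 was the lowest for the mean interferon level (0.90), WT animal 3 the highest for Acaa1b (7.81) and WT animal 4 the lowest for Mogat1 (-0.69). For Tek, Blnk, Acaa1b, Etfdh, Mogat1, Angptl4 and Fdps the LKO and WT animals still did not overlap.

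The genotype difference differed between fasted and fed animals, by the state difference of the same fit, in 60 of the 89 genes described, 36 below 0 and 24 above 0. Over all genes tested the share was 18.3%, with 10.6% below 0 and 7.71% above 0. The genes described were named in part for large fasted or state differences, so a higher share among them follows from that choice. For genes of fatty acid oxidation and acyl-CoA turnover, the state difference was called in Slc25a20 (-0.78), Etfdh (-1.16), Cpt2 (-1.04), Acadm (-1.03), Ehhadh (-3.78), Acaa1b (-1.91), Cyp4f14 (0.54), Vnn1 (-2.84), Acot2 (-2.90), Acot3 (-4.23), Acot5 (-3.04), Acat1 (-1.24) and Slc16a6 (0.75). For the uptake, storage and synthesis of lipids, the state difference was called in Cd36 (-2.84), Fabp1 (-0.98), Acsl1 (-1.27), G0s2 (-4.52), Agpat9 (-1.56), Mogat1 (-1.57), Gpd1 (-1.17), Cyp51 (1.44) and Srebf1 (-0.53). For bile acids and glucose, the state difference was called in Cyp7a1 (-2.89), Cyp8b1 (-1.23), Slc10a2 (1.27), Pdk4 (-3.85) and Pfkfb1 (-1.05). In stress and rapid response, the state difference was called in Gdf15 (2.92), Atf3 (3.45), Ddit3 (1.95), Nupr1 (2.27), Mthfd2 (2.66), Fos (2.35), Nr4a1 (2.73), Klf6 (2.26) and Gadd45g (-1.51). Within the NF-kappaB, interferon and endothelial lists, the state difference was called in Relb (2.76), Tnfaip3 (2.04), Cxcl10 (2.61), Ifit1 (1.78), Mx1 (1.97), Irf7 (1.39), Tek (-0.95), Clec4g (-0.93) and Fcgr2b (-0.77). Outside these groups it was called in Krt23 (-3.66), Serinc2 (-1.85), Caln1 (-0.93), Blnk (1.98), Hmox1 (1.45), Cyp1a2 (1.37), Nr1d1 (-0.96), Slc25a34 (-0.86), Slc25a42 (-1.37) and Hsd3b5 (2.85). The fitted state differences of Abcd2 (-2.90), Cyp4a14 (-3.95), Unc79 (-3.81), Hcar2 (3.00) and Wif1 (2.71) were called too, but are no measure of size, since at least 1 of their groups had 0 animals above background. In Unc79 that held for 3 of the 4 groups, all but fasted WT, and in Abcd2 for both LKO groups, with 1 of 5 fed WT animals above background.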

How the results depend on the processing

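The count of 6543 called genes was 5727 to 7562 over the other planned settings on all animals, and with each animal left out it ran from 5695 to 6315, with 2686 to 3015 higher and 3009 to 3325 lower. No gene called here was called in the opposite direction under those settings, except 9 with the probes of a gene averaged. The counts of at least 2-fold changes depended on dim signals: 199 higher and 249 lower with normexp, and 252 and 277 in the authors' deposited table; with each animal left out they ran from 388 to 411 and from 415 to 447. The 684 fed calls became 1071 with array weights and ran from 638 to 716 with each fasted animal left out, and the state difference ran from 2734 to 3136. The Ppara difference ran from -0.91 to -0.82. The Fasn difference, near 0, changed sign with the replicate block (-0.0051) and ran from -0.0233 to 0.0861 with each animal left out; the cause was not tested. Replicate numbers did not pair the animals: same-numbered LKO and WT animals had deviations that correlated at -0.10 to 0.18, and 2 of 5 matched their own number best. With the replicate block 6153 genes were called, 5929 of them shared with the main count. Signal over background limits the dim genes, whose fitted differences shrink under normexp.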
